A study of Mus musculus with 40 samples.

Results

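Gene expression was compared between the lungs of mice that received an adenovirus carrying transforming growth factor β1 and then saracatinib (Ad-TGFβ1 saracatinib lungs) and those of mice that received an empty vector and then saracatinib (empty vector saracatinib lungs). The comparison holds 10 of the 40 libraries of the series, 5 in each group, chosen by their labels for stimulation and inhibitor. All were left lungs of C57BL/6 mice. The vector, VQAd CMV mTGF-β1, drives the mouse cytokine from a cytomegalovirus promoter and was given by the nose, so the transgene is expressed in whichever cells took up the virus, which the labels do not name. Both groups carried adenovirus, and both were gavaged daily with 20 mg/kg of saracatinib from day 10 to day 27 after the virus and killed on day 28. A further 10 lungs, 5 with Ad-TGFβ1 and vehicle and 5 with empty vector and vehicle, gave the effect of the cytokine without the drug. The labels give the effect of saracatinib in experimental lung fibrosis as the question, and the comparison asks what the cytokine still changes when every lung has the drug.

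TGF-β1 is secreted in a latent complex that latent TGF-β binding proteins tether to elastic microfibrils, and integrins such as αvβ6 on lung epithelium release it. The active cytokine binds the receptors TGFBR2 and TGFBR1, which phosphorylate SMAD2 and SMAD3, and SMAD complexes then drive matrix genes in fibroblasts together with inhibitors of the pathway. Saracatinib blocks kinases of the Src family, which act downstream of integrins, growth factor receptors and antigen receptors and take part in the response of fibroblasts to TGF-β. Interferon γ, made by T and natural killer cells, induces the chemokines CXCL9 and CXCL10, which draw CXCR3-bearing T cells, as well as antigen presentation genes and guanylate-binding proteins.

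Total counts were 10.2 to 12.7 M in the Ad-TGFβ1 saracatinib lungs and 9.86 to 16.0 M in the empty vector saracatinib lungs (M, 10 to the power 6). Libraries are numbered in accession order, so a number only names a library and pairs nothing. On the first principal component of all 20 libraries, which held 28.9% of the variance, Ad-TGFβ1 saracatinib library 2 lay at 7.18 while the other 4 of its group lay between -22.8 and -15.6. Empty vector saracatinib library 2 lay at -7.98 and the other 4 of its group between 11.1 and 33.0, and empty vector vehicle library 1 lay at -15.0 while the other 4 of that group lay between 24.9 and 67.1. Each of these 3 libraries thus sat nearer to the opposite virus group than the rest of its own, and results are given with and without them where they change. Surfactant gene Sftpc was at 2350 to 3112 CPM in Ad-TGFβ1 saracatinib lungs and 1667 to 2433 CPM in empty vector saracatinib lungs (CPM is counts per 1 M counts after scaling), and Ager, of type 1 cells, was at 624 to 797 CPM and 479 to 740 CPM in those groups, so the labelled tissue carried its defining markers. The labels say that both sexes were studied, while Xist had at most 12 counts in any of the 20 libraries and the Y-linked Ddx3y at least 803. Because whole lungs were sequenced, fewer cells of a type and less RNA per cell cannot be told apart in any value below.

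With the drug present in both groups, the genes called with Ad-TGFβ1 were far more often higher than lower. Of 18834 genes tested, 485 were called (edgeR's quasi-likelihood test, adjusted p under 0.05), which is 2.58% of those tested, with 417 higher (2.21%) and 68 lower (0.361%). Among the called genes, 446 are protein-coding, the median size of the change was 0.68 on the log2 scale, and 125 rose by more than 1 while 14 fell by more than 1. In 338 of them the 5 Ad-TGFβ1 libraries and the 5 empty vector libraries did not overlap, beside 805 such genes, 4.27%, among all genes tested (2.79% higher and 1.49% lower). The number of calls rested on single libraries. It was 181 to 243 without Ad-TGFβ1 saracatinib library 1, 3 or 5 (203, 182 and 181) or empty vector saracatinib library 3, 4 or 5 (217, 228 and 243), 665 without Ad-TGFβ1 saracatinib library 2 and 796 without library 2 of each group. It was 807 without empty vector vehicle library 1, which is in neither compared group and enters only through the shared filter, scaling and estimate of spread.

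**Figure D1:**
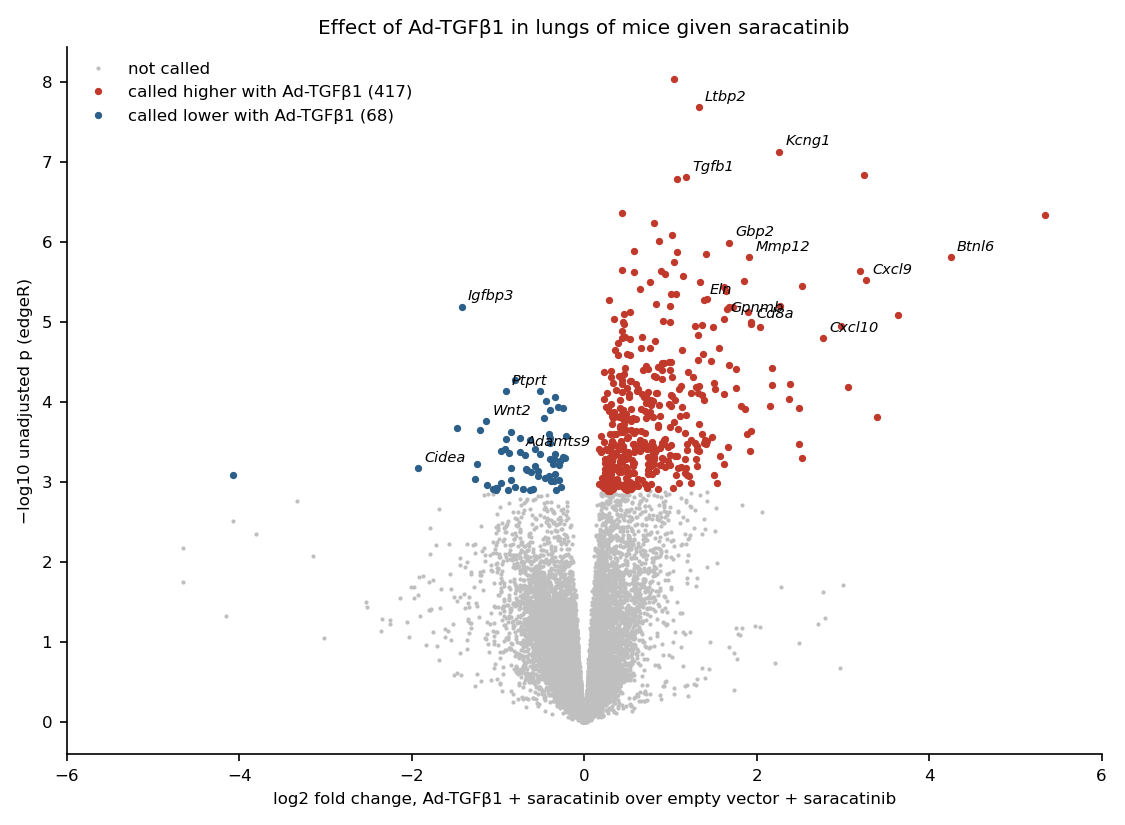
Change of 18834 genes with Ad-TGFβ1 in lungs of mice given saracatinib. The x axis is the log2 fold change of Ad-TGFβ1 saracatinib lungs over empty vector saracatinib lungs (1 gene lies outside it) and the y axis is -log10 of the unadjusted p of edgeR's test. Red points are the 417 genes called higher and blue points the 68 called lower, and the red side holds the taller and wider cloud.

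The cytokine gene itself was higher in every lung that received it. Tgfb1 (ENSMUSG00000002603, chromosome 7, 25687002 to 25705077 on GRCm38) was at 142, 145, 197, 143 and 172 CPM in Ad-TGFβ1 saracatinib lungs and 75.8, 76.9, 63.4, 56.6 and 80.0 CPM in empty vector saracatinib lungs. The groups did not overlap, and the log2 fold change was 1.18 ± 0.15 (SE, n = 5 in each group, adjusted p = 0.000516), called in each of 27 alternative settings, of which 20 leave out a library. Counts per gene do not separate transcripts of the vector from those of the mouse's own gene, since both encode the mouse protein.

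Several genes that store, release and receive TGF-β also rose. The list of 20 tested genes includes Tgfb1 itself, and with it 8 rose and 0 fell, with a median log2 fold change of 0.22, beside a median of -0.01 over all genes tested. Ltbp2 (chromosome 12, 84783212 to 84876532), a microfibril protein of the latent TGF-β binding protein family, stood at 329, 351, 437, 327 and 332 CPM in Ad-TGFβ1 saracatinib lungs and at 140, 163, 123, 116 and 165 CPM in empty vector saracatinib lungs. The lowest library of the first group lay well above the highest of the second, and the change was 1.33 ± 0.15 (adjusted p = 0.000195). Itgb6, the epithelial integrin chain that releases the latent cytokine, was at 173, 137, 157, 144 and 159 CPM in Ad-TGFβ1 saracatinib lungs against 113, 90.6, 67.5, 92.3 and 102 CPM in empty vector saracatinib lungs, again without overlap (0.72 ± 0.14, adjusted p = 0.00772). The ligand gene Tgfb2 rose by less, 0.45 ± 0.08 (adjusted p = 0.00346), at 49.3 to 56.6 CPM in Ad-TGFβ1 saracatinib lungs and 33.4 to 41.1 CPM in empty vector saracatinib lungs. Itgb5 and Ltbp3 each rose by 0.39, and the receptors Tgfbr1 and Tgfbr2 by 0.32 each. The receptor calls were marginal (adjusted p = 0.0409 and 0.0444): Tgfbr1 was lost in 17 and Tgfbr2 in 16 of the 27 alternatives, in 14 each by leaving out 1 library, with adjusted p of up to 0.152 and 0.133. The other 12 members lay between -0.52 for Thbs1, an activator of latent TGF-β, and 0.48 for Itgb8, and were not called.

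Among inhibitors of the pathway, the membrane proteins that hold back SMADs were the ones called. Pmepa1, which encodes a membrane protein that sequesters SMAD2 and SMAD3, was at 104, 110, 124, 96.5 and 109 CPM in Ad-TGFβ1 saracatinib lungs and 69.5, 67.1, 60.5, 56.4 and 57.2 CPM in empty vector saracatinib lungs. All 5 values lay above all 5 controls (0.81 ± 0.11, adjusted p = 0.00121). Its relative Ldlrad4 also rose, by 0.29 ± 0.06 (adjusted p = 0.0136), and these were the 2 called of 15 SMAD and feedback genes tested, whose median change was 0.06. Ldlrad4 was not called without Ad-TGFβ1 saracatinib library 3 or empty vector saracatinib library 3 or 4, at adjusted p of up to 0.0588. Smad7, the inhibitory SMAD, stood at 0.06 and was not called (adjusted p = 0.843).

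Classical TGF-β target genes mostly missed the threshold. Only Tgfbi, which encodes a secreted adhesion protein, was called among 20 tested members, whose median change was 0.17 and of which 15 had a positive change. It was at 122, 78.7, 113, 82.3 and 114 CPM in Ad-TGFβ1 saracatinib lungs and 85.7, 71.6, 54.2, 58.5 and 66.1 CPM in empty vector saracatinib lungs. The lowest libraries of the first group overlapped the highest of the second, at a change of 0.60 ± 0.13 (adjusted p = 0.0197), and the call was lost without Ad-TGFβ1 saracatinib library 1, 3 or 5 or empty vector saracatinib library 3, 4 or 5, at adjusted p of up to 0.0787. The count of called targets was 2 without empty vector saracatinib library 2 and 4 without empty vector vehicle library 1. Ccn2 (0.71) and the lysyl oxidase gene Lox (0.59) had similar sizes of change and were not called. The summed level of the list was 3200 to 3370 CPM in Ad-TGFβ1 saracatinib lungs and 2520 to 3090 CPM in empty vector saracatinib lungs, without overlap.

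The promoter of Tgfbi is shown because it is the called target, with the SMAD-binding letters CAGAC, searched on both strands, in capitals. The sequence is 300 bases of chr13:56609336-56609635, plus strand, from 250 bases before to 50 after the start, from RefSeq on GRCm38.p6.
Tgfbi: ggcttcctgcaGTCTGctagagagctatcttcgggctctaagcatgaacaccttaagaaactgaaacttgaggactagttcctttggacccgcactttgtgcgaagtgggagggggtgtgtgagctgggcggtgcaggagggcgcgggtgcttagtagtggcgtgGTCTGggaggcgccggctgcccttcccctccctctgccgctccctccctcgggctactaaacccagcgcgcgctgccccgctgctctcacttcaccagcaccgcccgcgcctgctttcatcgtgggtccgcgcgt
It holds 2 matches, whose first bases lie 239 and 85 bases before the start. These letters occur in 49.6% of 32851 mouse promoters of this length and in 8 of 17 promoters, 47.1%, of the 12 target genes that the sequence table holds.

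Several elastic fibre and microfibril genes rose. Eln (chromosome 5, 134702593 to 134747323), which encodes elastin, was at 770, 818, 1323, 563 and 702 CPM in Ad-TGFβ1 saracatinib lungs and 464, 306, 317, 232 and 280 CPM in empty vector saracatinib lungs. The groups did not overlap, and the change of 1.38 ± 0.22 (adjusted p = 0.00273) was called in all 27 alternatives. Adamtsl2, whose product binds fibrillin and latent TGF-β binding proteins, was at 212, 182, 195, 153 and 198 CPM in Ad-TGFβ1 saracatinib lungs and 79.3, 89.7, 68.8, 70.5 and 117 CPM in empty vector saracatinib lungs (1.14 ± 0.18, adjusted p = 0.00208). Mfap5, a microfibril glycoprotein, was at 44.5 to 64.0 CPM in Ad-TGFβ1 saracatinib lungs and 22.2 to 29.4 CPM in empty vector saracatinib lungs (1.07 ± 0.14, adjusted p = 0.000516). Neither overlapped between groups. In a family of 26 tested elastic fibre and microfibril genes, chosen after values were seen, 9 rose and 0 fell with a median of 0.16, and the members that did not pass ran from -0.34 for Fbln2 to 0.59 for Lox. The family count was 5 without Ad-TGFβ1 saracatinib library 3 or 5 or empty vector saracatinib library 3, 4 or 5.

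Among 28 tested matrix glycoproteins and proteoglycans, 8 rose and 0 fell, with a median of 0.22. Besides Eln, Adamtsl2 and Mfap5 they were biglycan, Bgn (0.77 ± 0.12, adjusted p = 0.00215, at 876 to 1021 CPM in Ad-TGFβ1 saracatinib lungs and 505 to 655 CPM in empty vector saracatinib lungs), Mfap4 (0.74), Fbln5 (0.67), Sparc (0.58) and Fbn1 (0.29). Fbn1 was the least certain, at adjusted p = 0.0486, and was lost in 20 of the 27 alternatives, 16 of them leaving out 1 library, at adjusted p of up to 0.187. The count was 4 without Ad-TGFβ1 saracatinib library 1, 3 or 5 or empty vector saracatinib library 3 or 4, and 5 without empty vector saracatinib library 1 or 5, Ad-TGFβ1 vehicle library 2, 3 or 5. Fibronectin, Fn1, was at 597, 587, 638, 760 and 735 CPM in Ad-TGFβ1 saracatinib lungs and 549, 818, 595, 526 and 550 CPM in empty vector saracatinib lungs, where library 2 was the highest of all 10, and was not called (0.13 ± 0.21, adjusted p = 0.805). The tenascin gene Tnc (0.36) and periostin, Postn (0.35 ± 0.21), were not called either.

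Of 18 tested collagen genes only Col5a2, a chain of collagen V, was called. It was at 184 to 254 CPM in Ad-TGFβ1 saracatinib lungs and 141 to 176 CPM in empty vector saracatinib lungs (0.45 ± 0.10, adjusted p = 0.0247), and the call was lost without Ad-TGFβ1 saracatinib library 1, 3 or 5 or empty vector saracatinib library 3, 4 or 5, at adjusted p of up to 0.10. The collagen count was 2 without empty vector vehicle library 1. Col1a1, the main chain of collagen I, was at 614, 752, 983, 708 and 644 CPM in Ad-TGFβ1 saracatinib lungs and 630, 624, 570, 578 and 638 CPM in empty vector saracatinib lungs. The groups overlapped, library 3 of the first group was the highest, and the change of 0.28 ± 0.13 (95% interval 0.02 to 0.54) was not called (adjusted p = 0.276). Col3a1 was at 0.29 ± 0.11 (95% interval 0.07 to 0.52, adjusted p = 0.188) and was not called. The median over the collagens was 0.15.

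Several enzymes that process or degrade matrix rose. P4ha3, a collagen prolyl hydroxylase chain, was at 4.84, 5.42, 7.54, 3.62 and 4.96 CPM in Ad-TGFβ1 saracatinib lungs and 1.81, 2.02, 2.15, 1.32 and 2.04 CPM in empty vector saracatinib lungs, without overlap (1.49 ± 0.26, adjusted p = 0.00361). With Adamts2 (0.51), Loxl1 (0.42) and Bmp1 (0.39), which cleave procollagen or cross-link elastin, it made 4 higher of 20 tested. That count was 1 without Ad-TGFβ1 saracatinib library 3 or 5 or empty vector saracatinib library 3, 4 or 5, 2 without empty vector saracatinib library 1, and 6 without empty vector vehicle library 1. Adamts2, Loxl1 and Bmp1 reached adjusted p of 0.113, 0.0881 and 0.113 when 1 library was left out. Among 24 proteases and inhibitors 4 rose and 0 fell. They were the macrophage elastase Mmp12, the collagenase Mmp13 (1.82 ± 0.38, adjusted p = 0.0131), the gelatinase Mmp2 and its membrane activator Mmp14 (0.44 ± 0.09, adjusted p = 0.0107). Only Mmp12 and Mmp2 were also called without Ad-TGFβ1 saracatinib library 3, where the adjusted p was 0.0569 for Mmp13 and 0.0544 for Mmp14. Mmp2 was at 209, 188, 277, 215 and 228 CPM in Ad-TGFβ1 saracatinib lungs and 92.1, 138, 97.7, 114 and 107 CPM in empty vector saracatinib lungs (1.02 ± 0.14, adjusted p = 0.00154). The inhibitor gene Timp1 had a change of 0.68 and was not called (adjusted p = 0.102). Of 20 basement membrane genes, Lamb3 (0.81) and Lama2 (0.30), both laminin chains, were called higher, with adjusted p of up to 0.0980 and 0.10 when 1 library was left out. That count was 0 without Ad-TGFβ1 saracatinib library 1, 3 or 5 or empty vector saracatinib library 1, 3, 4 or 5, 1 without Ad-TGFβ1 saracatinib library 4, empty vector saracatinib library 2 or Ad-TGFβ1 vehicle library 5, and 5 without empty vector vehicle library 1. The summed level of the basement membrane genes was 6720 to 7290 CPM in Ad-TGFβ1 saracatinib lungs and 5280 to 6660 CPM in empty vector saracatinib lungs, without overlap.

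Of 19 tested markers of activated fibroblasts, Ltbp2, the microfibril gene described above, alone was called (2 genes without empty vector vehicle library 1), and the median was 0.10. Their summed level, which includes Ltbp2, was 1480 to 1720 CPM in Ad-TGFβ1 saracatinib lungs and 1250 to 1410 CPM in empty vector saracatinib lungs, without overlap. Cthrc1, which marks the collagen-rich fibroblasts of fibrotic lung, was at 2.87, 2.36, 2.35, 2.52 and 2.98 CPM in Ad-TGFβ1 saracatinib lungs and 3.38, 2.64, 2.24, 1.92 and 2.72 CPM in empty vector saracatinib lungs. The groups lay within each other (0.01 ± 0.19, 95% interval -0.37 to 0.39), and the sign turned in 11 of the 27 alternatives. The smooth muscle actin gene Acta2 was at -0.57 ± 0.25 (adjusted p = 0.260), and 0 of 17 smooth muscle and pericyte genes were called, with a median of -0.28 (1 without Ad-TGFβ1 saracatinib library 4). Of 15 alveolar fibroblast genes only Wnt2 was called, and it fell (2 were called lower without Ad-TGFβ1 saracatinib library 4). It was at 4.30, 4.63, 4.61, 7.00 and 5.95 CPM in Ad-TGFβ1 saracatinib lungs and 13.3, 11.4, 9.34, 12.0 and 12.1 CPM in empty vector saracatinib lungs, without overlap (-1.13 ± 0.25, adjusted p = 0.0162). The Wnt2 call was lost without Ad-TGFβ1 saracatinib library 1 or 3, at adjusted p of up to 0.0598. Tcf21, a transcription factor of the same fibroblasts, was at -0.11 ± 0.23 and was not called. Of 20 genes of Src family kinases and focal adhesions 0 were called (2 without Ad-TGFβ1 saracatinib library 2), with a median of 0.03, and Src itself was at 85.1 to 98.8 CPM in Ad-TGFβ1 saracatinib lungs and 74.4 to 91.7 CPM in empty vector saracatinib lungs (0.13 ± 0.07, adjusted p = 0.326).

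**Figure D2:**
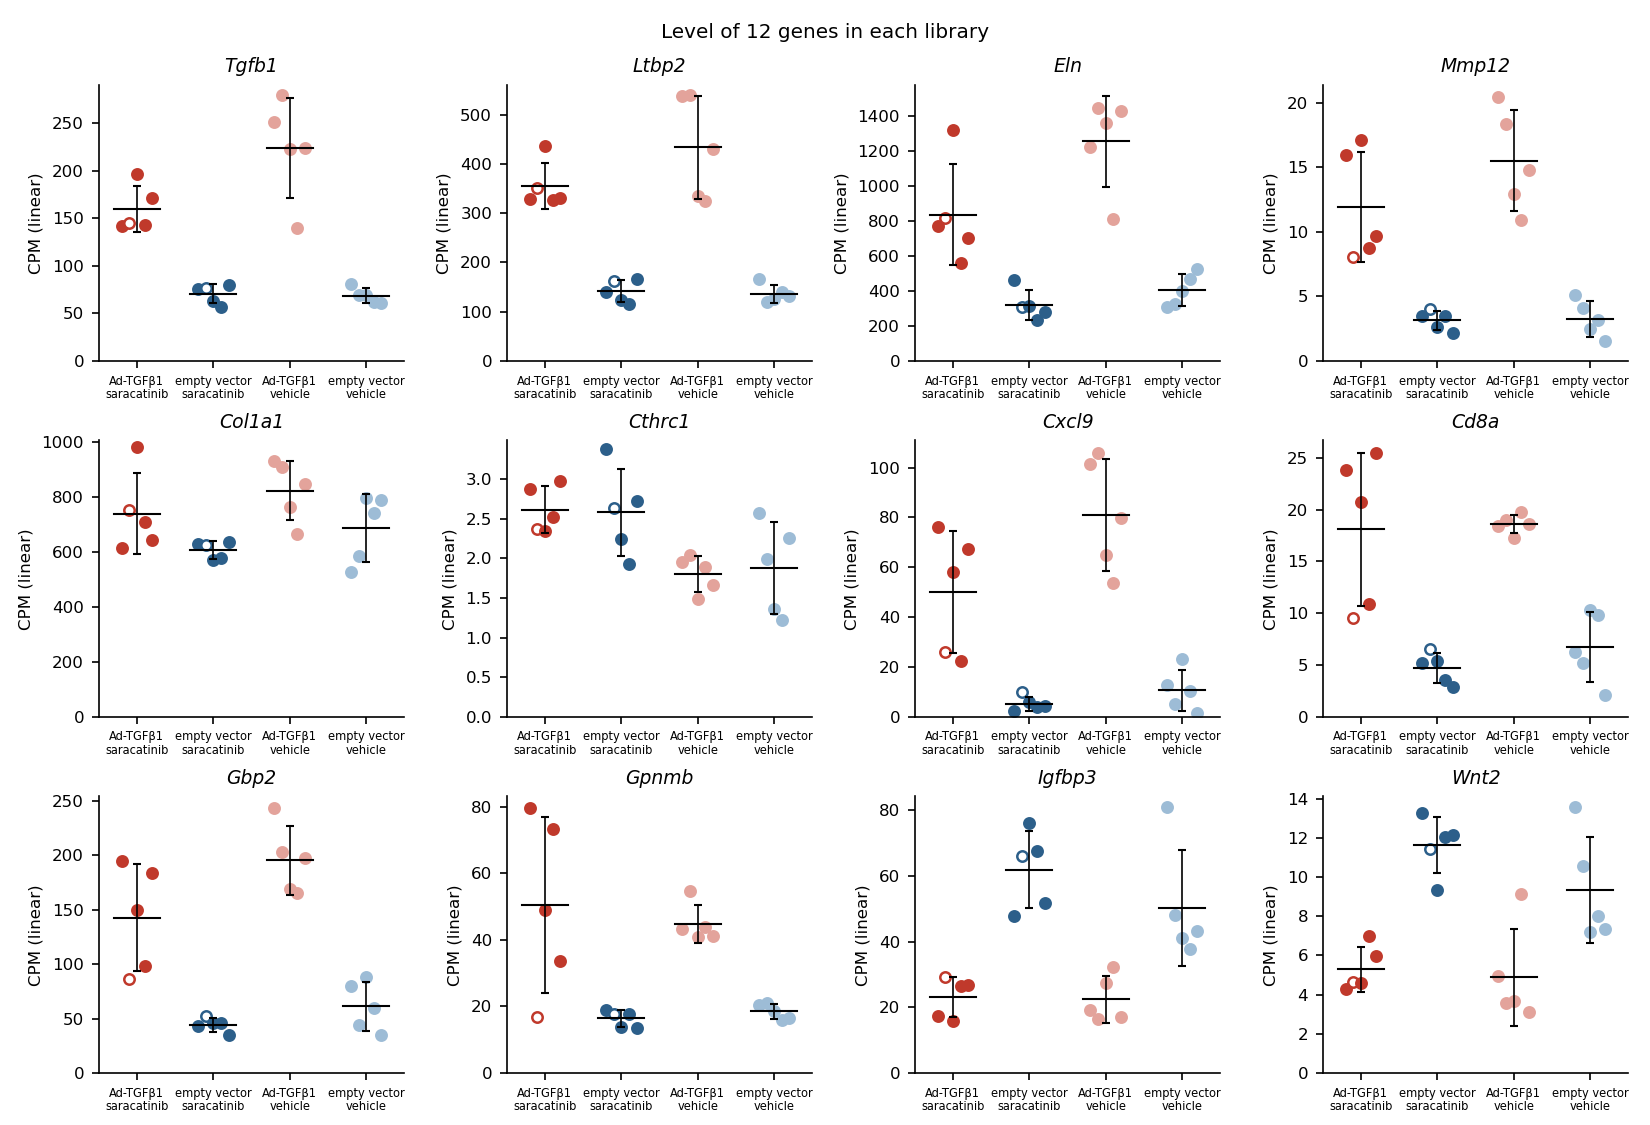
CPM of 12 genes in each library of the 4 groups on linear axes that start at 0. Each circle is a library, open circles are library 2 of each saracatinib group, the line is the mean and the bar is the SD (n = 5). Tgfb1, Ltbp2, Eln, Mmp12, Cxcl9, Cd8a and Gbp2 do not overlap between the saracatinib groups and are higher with Ad-TGFβ1, Igfbp3 and Wnt2 are lower without overlap, Col1a1 and Cthrc1 overlap, and in Gpnmb only library 2 of the Ad-TGFβ1 group, at 16.9 CPM, lies among the empty vector values.

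In the epithelium, 4 genes of the transitional alveolar state rose of 19 tested (median 0.14). Lcn2, an iron-scavenging protein of stressed epithelium and neutrophils, was at 142, 72.9, 96.2, 97.2 and 115 CPM in Ad-TGFβ1 saracatinib lungs and 44.9, 47.4, 21.4, 31.6 and 31.6 CPM in empty vector saracatinib lungs, without overlap (1.56 ± 0.28, adjusted p = 0.00554). The others were Tnip3 (1.08), Itgb6 and Lgals3 (0.65), while the keratins Krt8 (0.05) and Krt19 (-0.15) were not called. Of 18 type 2 cell genes, 17 had a positive change and 3 were called higher, namely Egfl6, a secreted matrix-binding protein (0.80 ± 0.17, adjusted p = 0.0120), the surfactant-processing protease Ctsh (0.54 ± 0.11, adjusted p = 0.00944) and the surfactant protein Sftpd (0.43 ± 0.11, adjusted p = 0.0359). Without Ad-TGFβ1 saracatinib library 1 or 3 or empty vector saracatinib library 3 or 5, the calls of Sftpd, Tnip3 and Lgals3 were lost, at adjusted p of up to 0.131, 0.0819 and 0.0884. The transitional count was 2 without Ad-TGFβ1 saracatinib library 1 or 3 or empty vector saracatinib library 3 or 5, and 6 without empty vector vehicle library 1. The type 2 count was 5 without Ad-TGFβ1 saracatinib library 2, 6 without empty vector saracatinib library 1 and 7 without empty vector vehicle library 1. All 17 ciliated cell genes had a negative change, with a median of -0.46, and 0 were called (1 without empty vector vehicle library 1). Their summed level was 1160 to 1540 CPM in Ad-TGFβ1 saracatinib lungs and 1470 to 2510 CPM in empty vector saracatinib lungs, so the ranges overlapped. In the vessels, Mgp, a matrix inhibitor of calcification made by arterial cells among others, rose by 0.73 ± 0.15 (adjusted p = 0.0119). Gja5, the arterial gap junction gene, fell by 0.69 on the log2 scale (adjusted p = 0.0278) and the sulfotransferase gene Chst1 of capillary cells by 0.41 (adjusted p = 0.0207). The Gja5 call was lost without Ad-TGFβ1 saracatinib library 1, 3 or 5 or empty vector saracatinib library 1, at adjusted p of up to 0.0864, and that of Chst1 without Ad-TGFβ1 saracatinib library 1 or 5, at up to 0.0665.

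Some macrophage genes rose in Ad-TGFβ1 saracatinib lungs. Of 24 genes of monocyte-derived and scar-associated macrophages, 9 rose, 0 fell and the other 15 did not pass, with a median of 0.59. Of 17 alveolar macrophage genes, 2 were called higher and 0 lower, with a median of 0.53. Mmp12, the macrophage elastase, was at 16.0, 8.08, 17.1, 8.73 and 9.67 CPM in Ad-TGFβ1 saracatinib lungs and 3.44, 4.04, 2.62, 3.44 and 2.14 CPM in empty vector saracatinib lungs, without overlap (1.92 ± 0.28, adjusted p = 0.00173). Gpnmb, a glycoprotein of lipid-laden and scar-associated macrophages, was at 79.7, 16.9, 48.8, 73.2 and 33.5 CPM in Ad-TGFβ1 saracatinib lungs and 19.0, 17.8, 13.9, 17.7 and 13.6 CPM in empty vector saracatinib lungs (1.62 ± 0.27, adjusted p = 0.00346). Library 2 of the first group lay within the second group, and the other 4 lay above it. Ms4a7 (1.13 ± 0.21, adjusted p = 0.00571), Cd68 (0.99), the growth factor gene Igf1 (0.80) and Adgre1 (0.72) were also called, Igf1 not without Ad-TGFβ1 saracatinib library 3 or empty vector saracatinib library 4 or 5 (adjusted p of up to 0.0659). Trem2, a lipid receptor, rose by 1.19 ± 0.28 (adjusted p = 0.0258) with the same library 2 at 2.66 CPM inside the empty vector range of 1.75 to 3.43 CPM. Its call was lost without Ad-TGFβ1 saracatinib library 1, 3 or 4 or empty vector saracatinib library 3, 4 or 5, at adjusted p of up to 0.0999. Osteopontin, Spp1, another marker of scar-associated macrophages, was at 31.2 to 58.4 CPM in Ad-TGFβ1 saracatinib lungs and 25.0 to 46.2 CPM in empty vector saracatinib lungs and was not called (0.28 ± 0.37, adjusted p = 0.75). The count was 13 without Ad-TGFβ1 saracatinib library 2 or without empty vector saracatinib library 2, 16 without both, 4 without Ad-TGFβ1 saracatinib library 3, 6 without its library 1, and 6, 5 and 5 without empty vector saracatinib library 3, 4 or 5.

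Lysosomal enzymes, which macrophages hold in large amounts, moved one way. In a family of 49 such genes, chosen after values were seen, all 49 had a positive change, 22 were called higher and the median was 0.31. Cathepsin S, Ctss, which trims the MHC class II invariant chain, was at 353, 140, 286, 249 and 272 CPM in Ad-TGFβ1 saracatinib lungs and 99.6, 130, 84.4, 80.2 and 95.4 CPM in empty vector saracatinib lungs. Library 2 of the first group, 140 CPM, was the nearest to the second (1.41 ± 0.21, adjusted p = 0.00173). Cathepsin K, Ctsk, a collagen-degrading enzyme, was at 19.3 to 42.6 CPM in Ad-TGFβ1 saracatinib lungs and 13.2 to 17.1 CPM in empty vector saracatinib lungs (0.94 ± 0.14, adjusted p = 0.00207). The summed level of the family was 6050 to 7570 CPM in Ad-TGFβ1 saracatinib lungs and 5130 to 5950 CPM in empty vector saracatinib lungs. The count was 9 or 10 without Ad-TGFβ1 saracatinib library 1, 3 or 5 or empty vector saracatinib library 4 or 5 (10, 9, 9, 9 and 10), and 11 without empty vector saracatinib library 3.

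Genes that interferon γ induces held some of the largest changes, and whether interferon γ or another signal raised them was not tested. The chemokine gene Cxcl9 (chromosome 5, 92321347 to 92328079) was at 76.1, 26.0, 58.1, 22.4 and 67.4 CPM in Ad-TGFβ1 saracatinib lungs and 2.25, 9.93, 5.79, 3.85 and 4.47 CPM in empty vector saracatinib lungs. Every Ad-TGFβ1 library lay above every empty vector library, and the change was 3.27 ± 0.51 (adjusted p = 0.00215). Its neighbour Cxcl10 (chromosome 5, 92346638 to 92348889), a chemokine of the same receptor, was at 25.1, 10.8, 21.1, 7.86 and 29.4 CPM in Ad-TGFβ1 saracatinib lungs and 1.88, 3.78, 2.24, 1.42 and 4.57 CPM in empty vector saracatinib lungs (2.77 ± 0.49, adjusted p = 0.00451). Libraries 2 and 4 were the lowest of their group in both genes. Cxcl11, another ligand of the receptor, rose by 2.49 ± 0.57 (adjusted p = 0.0239) at under 1.1 CPM, and its call was lost without Ad-TGFβ1 saracatinib library 1, 3 or 5 or empty vector saracatinib library 1, 3, 4 or 5, at adjusted p of up to 0.0826. The receptor gene Cxcr3 was at 4.53 to 7.71 CPM in Ad-TGFβ1 saracatinib lungs and 2.31 to 5.51 CPM in empty vector saracatinib lungs and was not called (0.88 ± 0.36, adjusted p = 0.211). Cxcl11 and Cxcr3 were named after their values were seen.

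Guanylate-binding proteins (GBP) and immunity-related GTPases (IRG), which attack the vacuoles of intracellular microbes, rose in most of their members. Of 18 tested, a family chosen after values were seen, 15 were called higher and 0 lower, and the median change was 1.30. Gbp2 (chromosome 3, 142620602 to 142638008) was at 195, 86.0, 150, 98.2 and 184 CPM in Ad-TGFβ1 saracatinib lungs and 43.1, 52.5, 45.5, 45.8 and 35.0 CPM in empty vector saracatinib lungs (1.69 ± 0.24, adjusted p = 0.00160). Iigp1 was at 351, 114, 237, 146 and 268 CPM in Ad-TGFβ1 saracatinib lungs and 40.3, 73.8, 52.6, 50.3 and 54.1 CPM in empty vector saracatinib lungs (2.04 ± 0.35, adjusted p = 0.00361). Library 2 was again the lowest of the first group and the highest of the second in both genes, and neither gene overlapped. Tgtp1 (2.38 ± 0.49, adjusted p = 0.0116) and Gbp10 (2.16 ± 0.45, adjusted p = 0.0129) have near-identical copies, Tgtp2 and Gbp6, so their reads may have been shared or lost in counting. The family count was 10 without Ad-TGFβ1 saracatinib library 1, 3 or 5 or empty vector saracatinib library 3, and 10 to 16 over all single libraries left out. Their summed level was 840 to 1770 CPM in Ad-TGFβ1 saracatinib lungs and 491 to 678 CPM in empty vector saracatinib lungs.

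Promoters of Cxcl10 and of 3 of these GTPases are printed because the genes moved together. Capitals mark the interferon-stimulated response element letters (GAAA, any 2 bases, GAAA) and the gamma-activated site letters TTCNNNGAA, on either strand. Each sequence is 250 bases before to 50 after a start, from RefSeq on GRCm38.p6, and is read in the direction of the gene. Cxcl10 is chr5:92348840-92349139 on the minus strand, and on the plus strand Gbp2 is chr3:142620413-142620712, Gbp5 is chr3:142496684-142496983 and Igtp is chr11:58199306-58199605.
Cxcl10: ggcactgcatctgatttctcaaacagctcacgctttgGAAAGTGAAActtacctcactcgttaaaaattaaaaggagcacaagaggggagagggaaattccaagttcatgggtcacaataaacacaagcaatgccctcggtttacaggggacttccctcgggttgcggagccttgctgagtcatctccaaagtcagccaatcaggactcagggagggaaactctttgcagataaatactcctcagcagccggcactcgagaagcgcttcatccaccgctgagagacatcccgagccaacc
Gbp2: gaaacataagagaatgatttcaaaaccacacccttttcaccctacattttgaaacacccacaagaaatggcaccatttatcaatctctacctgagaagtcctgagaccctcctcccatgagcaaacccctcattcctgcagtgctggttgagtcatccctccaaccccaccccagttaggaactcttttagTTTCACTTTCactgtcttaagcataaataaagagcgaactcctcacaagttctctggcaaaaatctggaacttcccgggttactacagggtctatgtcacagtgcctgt
Gbp5: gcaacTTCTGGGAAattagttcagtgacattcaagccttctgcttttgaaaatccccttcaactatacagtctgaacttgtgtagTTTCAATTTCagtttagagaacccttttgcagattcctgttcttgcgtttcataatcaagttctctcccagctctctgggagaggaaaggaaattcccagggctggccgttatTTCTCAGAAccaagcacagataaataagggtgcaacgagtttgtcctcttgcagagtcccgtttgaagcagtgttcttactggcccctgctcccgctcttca
Igtp: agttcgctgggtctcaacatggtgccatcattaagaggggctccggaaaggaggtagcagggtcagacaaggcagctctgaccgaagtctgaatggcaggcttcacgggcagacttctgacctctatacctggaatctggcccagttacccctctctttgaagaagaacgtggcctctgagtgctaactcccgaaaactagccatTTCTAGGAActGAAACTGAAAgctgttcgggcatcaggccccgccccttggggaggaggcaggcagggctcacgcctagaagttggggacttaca
The response element letters begin 213 bases before the start in Cxcl10, 59 in Gbp2, 165 in Gbp5 and 34 in Igtp. Gamma-activated site letters begin 245 and 52 bases before the start in Gbp5 and 45 in Igtp, and no 2 of these matches overlap. Left in lower case are 1 match of the response element letters in the Tgfbi sequence and of the CAGAC letters 1 match in Gbp5 and 3 in Igtp. Response element letters stand in 10 of the 12 promoters (83.3%) that the sequence table holds for 11 genes of the family, and in 3.44% of 32851 promoters of the same length, and gamma-activated site letters in 6 of 12 (50%) and in 8.30%. The CAGAC letters stand in 6 of those 12 (50%), beside 49.6% of all promoters. In the 17 promoters of target genes, response element letters stand in 2 (11.8%) and gamma-activated site letters in 3 (17.6%). In 25 promoters of the MHC class I family, described below, response element letters stand in 5 (20%) and gamma-activated site letters in 2 (8%). The letters were chosen after the values of the GTPase family were seen, and a match is a description of sequence only. Gbp5 rose by 1.65 ± 0.26 (adjusted p = 0.00240) and Igtp by 1.68, less than Tgtp1, Gbp10 and Iigp1 of the same family.

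The list of interferon-stimulated genes, which includes Gbp2, Gbp5 and Irgm1 of the GTPase family, held 22 tested genes. All 22 had a positive change, 6 were called higher, among them those 3 together with Ifit3 and Ifit1, and the median was 0.87. Ifit3, an inhibitor of viral RNA translation, was at 81.2, 28.3, 41.0, 40.4 and 50.3 CPM in Ad-TGFβ1 saracatinib lungs and 22.1, 21.1, 18.2, 17.6 and 17.4 CPM in empty vector saracatinib lungs (1.32 ± 0.24, adjusted p = 0.00699). The groups did not overlap, and library 1 stood above the rest. Ifit1, of the same family, rose with adjusted p = 0.0376, and its call was lost in 12 of the 27 alternatives, 11 of them leaving out 1 library, at adjusted p of up to 0.15. The count rested on Ad-TGFβ1 saracatinib library 2 among others. Without it 15 were called, and 13 without library 2 of both groups, against 3 without Ad-TGFβ1 saracatinib library 1, 3 or 5 or empty vector saracatinib library 3, 4 without empty vector saracatinib library 4 or 5, and 10 without Ad-TGFβ1 saracatinib library 4 or empty vector vehicle library 3. The summed level was 503 CPM in Ad-TGFβ1 saracatinib library 2, 631 to 1190 CPM in the other 4 and 347 to 454 CPM in the empty vector saracatinib lungs.

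T cell genes accompanied the chemokines. All 21 tested genes of T and natural killer cells had a positive change, 8 were called higher and the median was 0.94. Cd8a (chromosome 6, 71373427 to 71379173), the coreceptor of cytotoxic T cells, was at 23.9, 9.56, 20.7, 10.9 and 25.5 CPM in Ad-TGFβ1 saracatinib lungs and 5.19, 6.50, 5.42, 3.54 and 2.91 CPM in empty vector saracatinib lungs, without overlap (1.93 ± 0.33, adjusted p = 0.00357). Cd8b1, its partner chain, rose by 1.73 ± 0.28 (adjusted p = 0.00282), and the checkpoint genes Pdcd1 and Ctla4 by 1.54 and 1.51, Pdcd1 with adjusted p = 0.0447 and up to 0.132 in the 12 cases where leaving out 1 library lost it. Cd4 was at 10.1 to 16.9 CPM in Ad-TGFβ1 saracatinib lungs and 6.07 to 14.9 CPM in empty vector saracatinib lungs and was not called (0.43 ± 0.29, adjusted p = 0.470), nor were Foxp3 of regulatory T cells (0.94 ± 0.29, adjusted p = 0.0992) and the killing genes Gzmb (1.03 ± 0.38, adjusted p = 0.169) and Prf1 (0.61 ± 0.30, adjusted p = 0.317). The cytokine gene Ifng had 11, 4, 7, 9 and 13 counts in Ad-TGFβ1 saracatinib lungs and 0, 0, 3, 4 and 0 counts in empty vector saracatinib lungs. It was called (2.53 ± 0.61, adjusted p = 0.0285) at counts this low, and lost without Ad-TGFβ1 saracatinib library 1, 3 or 5 or empty vector saracatinib library 1, 2 or 5, at adjusted p of up to 0.0928. Cxcr6, a receptor of tissue-resident T cells named after its values were seen, was at 8.18 to 18.3 CPM in Ad-TGFβ1 saracatinib lungs and 2.63 to 6.50 CPM in empty vector saracatinib lungs (1.68 ± 0.28, adjusted p = 0.00282). The list's count was 3 without Ad-TGFβ1 saracatinib library 1, 3 or 5 or empty vector saracatinib library 1 or 5, and 4 without empty vector saracatinib library 3 or 4 or Ad-TGFβ1 vehicle library 1 or 5, and 13 without library 2 of both saracatinib groups. Its summed level was 146 to 269 CPM in Ad-TGFβ1 saracatinib lungs and 88.0 to 163 CPM in empty vector saracatinib lungs, and the part of cell number in the interferon genes was not tested.

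**Figure D3:**
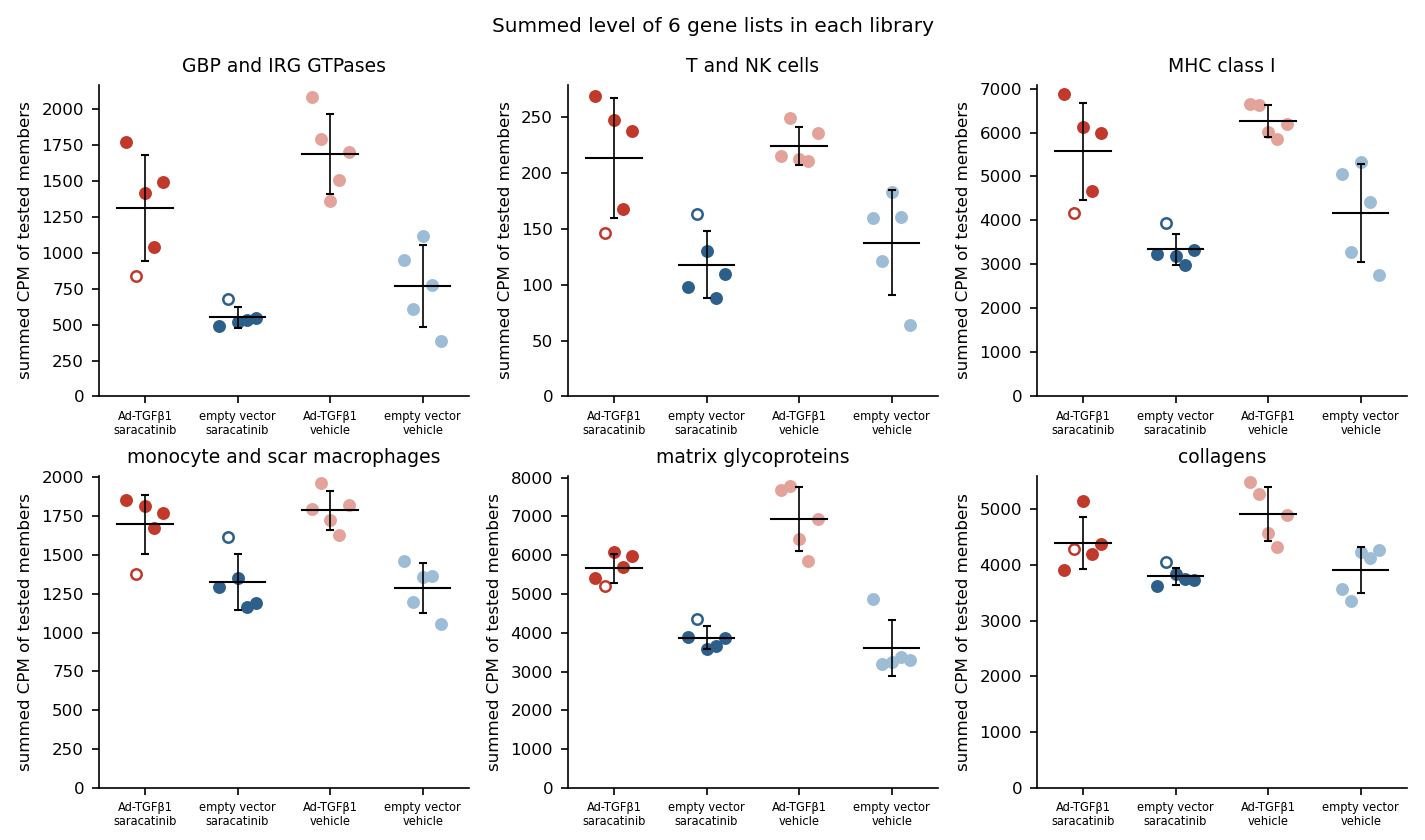
Summed CPM of the tested members of 6 gene lists in each library of the 4 groups, on linear axes that start at 0. Each circle is a library, open circles are library 2 of each saracatinib group, the line is the mean and the bar is the SD (n = 5). In the GTPases, T and NK cells, MHC class I and macrophages the open circle of the Ad-TGFβ1 saracatinib group is its lowest library and that of the empty vector saracatinib group its highest, while the matrix glycoproteins, at 5200 to 6070 CPM and 3580 to 4360 CPM, stay apart with all libraries.

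Both arms of antigen presentation rose. In the MHC class I family (28 tested, chosen after values were seen) 18 were called higher and 0 lower, with a median of 0.69. H2-K1, a classical class I heavy chain, was at 1269, 660, 1083, 759 and 1043 CPM in Ad-TGFβ1 saracatinib lungs and 419, 578, 443, 409 and 475 CPM in empty vector saracatinib lungs, without overlap (1.05 ± 0.21, adjusted p = 0.0117). The peptide transporter gene Tap1 (1.02 ± 0.21, adjusted p = 0.0111) and the class I transactivator Nlrc5 (0.90 ± 0.21, adjusted p = 0.0239) were called as well. Heavy chain genes of this family are near-identical, so the split of reads among them is uncertain. In the MHC class II family (14 tested, chosen in the same way) 10 rose and 0 fell, with a median of 0.74. H2-Ab1 was at 507, 338, 550, 348 and 488 CPM in Ad-TGFβ1 saracatinib lungs and 189, 323, 263, 223 and 227 CPM in empty vector saracatinib lungs (0.87 ± 0.18, adjusted p = 0.0129). The transactivator gene Ciita rose by 0.77 ± 0.16 (adjusted p = 0.0139). The class I count was 8 without Ad-TGFβ1 saracatinib library 1 or 3 and 10 without its library 5 or empty vector saracatinib library 3 or 4, and the class II count was 3 without Ad-TGFβ1 saracatinib library 3, 6 and 5 without its libraries 1 and 5, and 5 or 6 without empty vector saracatinib library 1, 4 or 5 (6, 5 and 6). Without Ad-TGFβ1 saracatinib library 3 the adjusted p was 0.0505 for Tap1 and 0.0569 for H2-Ab1. Calls were also lost for Nlrc5 without Ad-TGFβ1 saracatinib library 1, 3 or 5 or empty vector saracatinib library 1, 3 or 4, at adjusted p of up to 0.0906, and for Ciita without Ad-TGFβ1 saracatinib library 3 or 5 or empty vector saracatinib library 4, at up to 0.0641.

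Dendritic cell genes gave 6 higher of 12 tested, 3 of them MHC class II chains or the invariant chain. Xcr1, the chemokine receptor of cross-presenting dendritic cells, was at 15.9, 12.5, 19.4, 10.9 and 14.8 CPM in Ad-TGFβ1 saracatinib lungs and 4.06, 7.47, 5.89, 7.80 and 6.80 CPM in empty vector saracatinib lungs, without overlap (1.21 ± 0.23, adjusted p = 0.00820), and Itgae, which encodes CD103, rose by 0.92 ± 0.17 (adjusted p = 0.00730). Butyrophilin-like genes also rose, at low counts. Btnl6 was at 3.68, 0.493, 1.84, 2.99 and 1.82 CPM in Ad-TGFβ1 saracatinib lungs and at 0.304 CPM or less in empty vector saracatinib lungs, where 2 libraries had no count (4.25 ± 0.63, adjusted p = 0.00173). Counts of 0 to 3 in the empty vector group leave the size of that change poorly fixed, and its paralog Btnl4 (3.64) may share its reads. B and plasma cell genes gave 0 called of 21 tested (median -0.20). The dendritic count was 2 without Ad-TGFβ1 saracatinib library 3 and 3 without its library 1 or 5 or empty vector saracatinib library 1, 4 or 5.

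**Figure D4:**
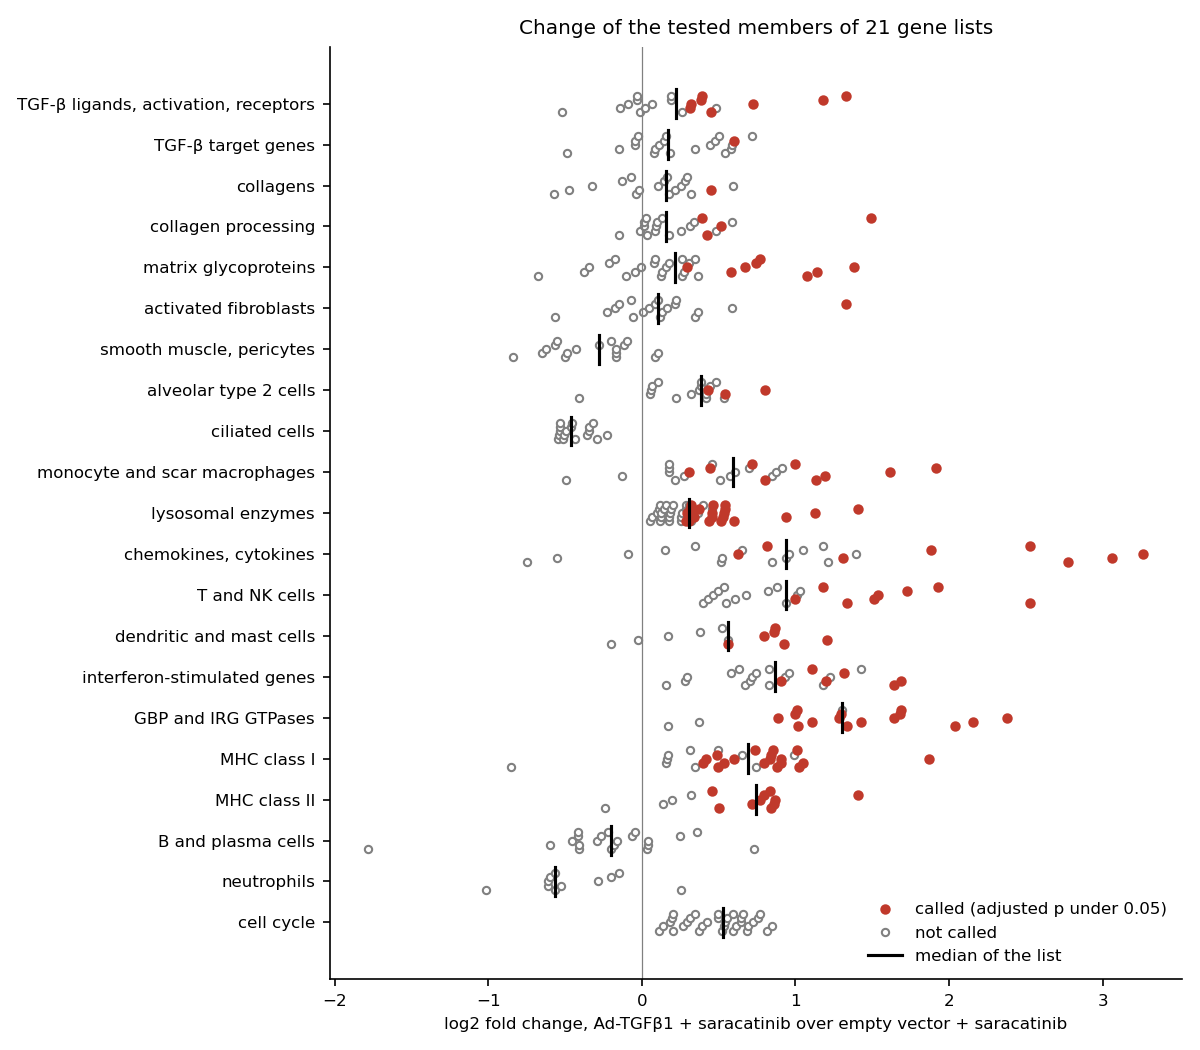
Log2 fold change of Ad-TGFβ1 saracatinib lungs over empty vector saracatinib lungs for the tested members of 21 gene lists. Each circle is a gene, red where called at adjusted p under 0.05, and the black bar is the median of the list. The GTPases, chemokines, T and NK cells and interferon-stimulated genes lie farthest to the right, with medians of 1.30, 0.94, 0.94 and 0.87, and the medians of ciliated, smooth muscle and neutrophil genes lie left of 0 with no red circle.

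The 68 genes that fell include regulators of growth factor signalling but few members of any list. Igfbp3 (chromosome 11, 7206086 to 7213923), a secreted binder of insulin-like growth factors, was at 17.3, 29.3, 15.8, 26.3 and 26.8 CPM in Ad-TGFβ1 saracatinib lungs and 47.9, 66.1, 76.3, 67.6 and 51.8 CPM in empty vector saracatinib lungs. The groups did not overlap, and the change of -1.42 ± 0.23 (adjusted p = 0.00282) was called in all 27 alternatives. Ptprt, a receptor tyrosine phosphatase, was at 1.38 to 2.24 CPM in Ad-TGFβ1 saracatinib lungs and 2.99 to 3.81 CPM in empty vector saracatinib lungs (-0.91 ± 0.18, adjusted p = 0.0107) and was likewise called in all of them. Adamts9, a metalloprotease of proteoglycans named after its values were seen, was at 82.9, 92.2, 80.7, 89.7 and 73.2 CPM in Ad-TGFβ1 saracatinib lungs and 131, 140, 126, 137 and 167 CPM in empty vector saracatinib lungs, without overlap (-0.74 ± 0.18, adjusted p = 0.0265). Spon2, a secreted matrix protein of the spondin family, was at 7.71, 9.26, 10.5, 6.21 and 10.0 CPM in Ad-TGFβ1 saracatinib lungs and 24.9, 14.1, 19.3, 13.2 and 10.7 CPM in empty vector saracatinib lungs (-0.92 ± 0.22, adjusted p = 0.0257). Adamts9 was lost without Ad-TGFβ1 saracatinib library 1, 3 or 5 or empty vector saracatinib library 5, at adjusted p of up to 0.0804, and Spon2 without Ad-TGFβ1 saracatinib library 1, 4 or 5 or empty vector saracatinib library 1 or 3, at up to 0.0773.

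The lipid droplet gene Cidea had the largest fall among named genes that were called, at 0.248 to 0.788 CPM in Ad-TGFβ1 saracatinib lungs and 1.06, 4.83, 3.08, 1.01 and 1.07 CPM in empty vector saracatinib lungs (-1.93 ± 0.48, adjusted p = 0.0333). Its high values came from empty vector saracatinib libraries 2 and 3. Those same libraries held a summed level of 668 and 684 CPM of 10 adipocyte genes, among them Adipoq and Plin1, against 54.8 to 74.3 CPM in the other 3 empty vector libraries and 48.7 to 142 CPM in Ad-TGFβ1 saracatinib lungs. The part of adipose tissue in the Cidea difference was not tested, and its call was lost without empty vector saracatinib library 2 or 3 or Ad-TGFβ1 saracatinib library 1, 3, 4 or 5, at adjusted p of up to 0.111. Of the 10 adipocyte genes it alone was called, with all 10 negative and a median of -1.55. Further falls were in Slc35g3 (-1.27), Rptn (-1.21), Tymp (-1.06), Colq (-1.02), Ccnjl (-0.97), Gabrq (-0.88) and Hhatl (-0.87). Each of these 7 was lost in 4 to 17 of the 27 alternatives, in every case without Ad-TGFβ1 saracatinib library 1 among others, at adjusted p of up to 0.0663 in Rptn and 0.141 in Gabrq.

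Set beside the effect of the cytokine in vehicle lungs, the direction was shared and fewer genes were called. In vehicle lungs 4865 genes were called, 25.8% of those tested, with 2173 higher (11.5%) and 2692 lower (14.3%). The comparisons share no library, and have the filter, scaling and estimate of spread of the fit in common. Of the 485 genes called in saracatinib lungs, 388 (80.0%) were also called in vehicle lungs in the same direction, which is 7.98% of the 4865. Only Gm38140, a predicted gene (1.26 under saracatinib and -0.80 under vehicle), was called in opposite directions, and 96 were not called in vehicle lungs. Over the 4865, 4496 (92.4%) had the same sign in saracatinib lungs, where the median change along the vehicle direction was 0.20, against 0.51 in vehicle lungs. These genes and the direction were both picked by the vehicle value, which by itself enlarges the vehicle median. These medians therefore do not measure an effect of the drug. Over the 485, the median was 0.68 in saracatinib lungs and 0.59 in vehicle lungs, but these genes were picked by the first of the values. Across all tested genes Pearson's r between the effects was 0.55, a description over genes that are not independent. Higher genes made up 86.0% of the calls in saracatinib lungs and 44.7% of those in vehicle lungs. The saracatinib split moved with the setting, to 349 higher and 93 lower in the compared groups alone and to 587 and 220 without empty vector vehicle library 1. Whether the split differs between saracatinib and vehicle lungs was not tested.

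**Figure D5:**
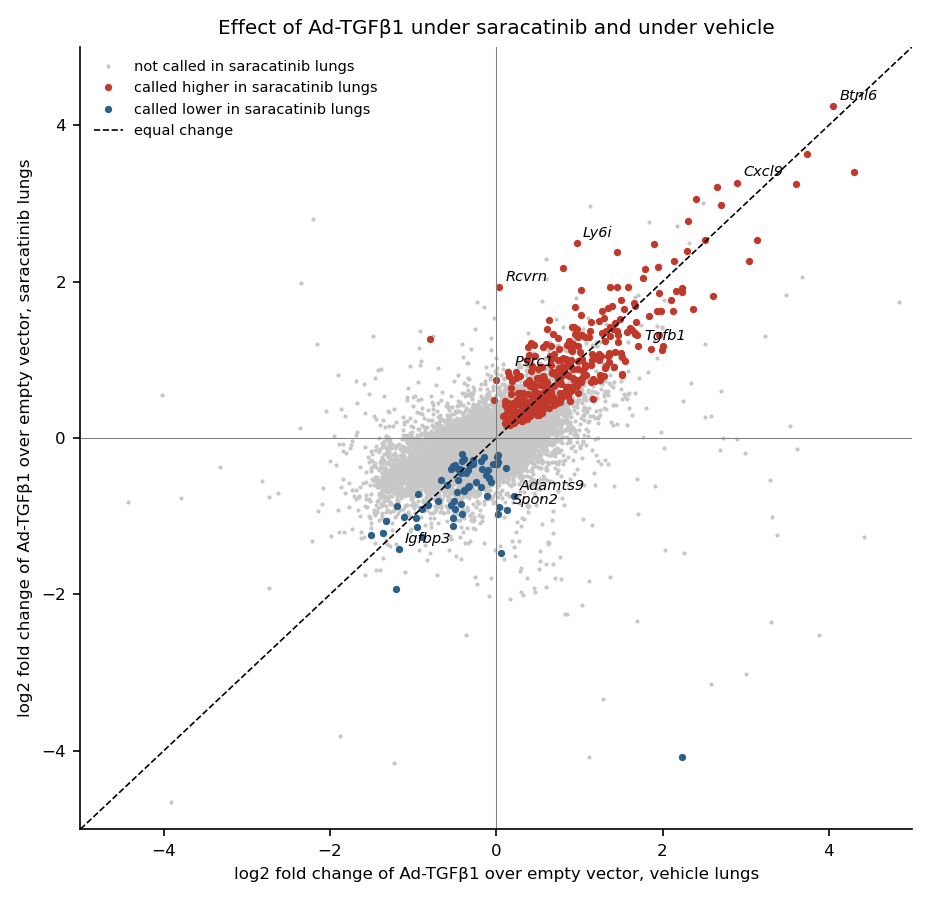
Log2 fold change with Ad-TGFβ1 under saracatinib (y axis) against that under vehicle (x axis) for 18834 genes, of which 3 lie outside the axes. Red and blue points are genes called higher and lower in saracatinib lungs, and the dashed line is an equal change. Most coloured points lie in the quadrants of equal sign, as 469 of the 485 called genes (96.7%) have the same sign in both, and Spon2, Adamts9 and Rcvrn are among those with a small vehicle change.

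The difference between the effects was tested directly, as the change under saracatinib minus that under vehicle. With all libraries, 0 genes passed (edgeR's quasi-likelihood test), 1933 had an unadjusted p under 0.05, and the lowest adjusted p was 0.0974, for Gm38140 and for Sord, the sorbitol dehydrogenase gene (0.12 under saracatinib and -0.60 under vehicle). This result rested on a single library. Without empty vector vehicle library 1, which lay among the Ad-TGFβ1 libraries on the first component, 1190 genes passed, 658 with a higher and 532 with a lower value under saracatinib. That fit kept library 2 of each saracatinib group, which also lay apart from its group. Leaving out those libraries alone passed 0, and no setting left them out together with empty vector vehicle library 1. DESeq2 passed 1 gene, limma voom with quality weights 413, and leaving out empty vector saracatinib library 4 passed 1. Every other alternative passed 0. Of the 485 genes called in saracatinib lungs, 47 had an unadjusted p of the difference under 0.05, and 26 passed without empty vector vehicle library 1.

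The effects on the cytokine gene were first set side by side. Tgfb1 averaged 160 ± 24.3 CPM in Ad-TGFβ1 saracatinib lungs and 70.5 ± 10.0 CPM in empty vector saracatinib lungs, and 224 ± 52.5 CPM in Ad-TGFβ1 vehicle lungs and 68.6 ± 8.12 CPM in empty vector vehicle lungs (SD, n = 5). The log2 fold changes were 1.18 and 1.71, and their difference of -0.53 ± 0.21 (unadjusted p = 0.0201, adjusted p = 0.481) was not called. Adamtsl2 rose by 1.14 under saracatinib and 1.86 under vehicle, a difference of -0.72 ± 0.25 (adjusted p = 0.481), which passed without empty vector vehicle library 1 (-0.88 ± 0.23, adjusted p = 0.0334). Fibronectin, Fn1, was at 0.13 under saracatinib and 0.93 under vehicle (difference -0.80 ± 0.30, adjusted p = 0.481), and its difference passed without that library (-1.16 ± 0.18, adjusted p = 0.00655). That fit kept empty vector saracatinib library 2, which was the highest of its group in Fn1 at 818 CPM. Over the 27 alternatives the Fn1 change under saracatinib ran from 0.065 to 0.29. All 17 tested ciliated cell genes were called lower in vehicle lungs, with a median of -1.14 against -0.46 in saracatinib lungs, where 0 were called. In 11 of the 17 the difference passed without empty vector vehicle library 1, beside 1190 of all genes in that fit, and in 0 with it. With all libraries, 11 of the 17 had an unadjusted p of the difference under 0.05, beside 1933 of all 18834 genes. For genes of the interferon γ response the changes under saracatinib and vehicle were 3.27 and 2.90 in Cxcl9, 1.69 and 1.67 in Gbp2 and 1.93 and 1.45 in Cd8a, with adjusted p of the difference of 0.860, 0.995 and 0.705. Without empty vector vehicle library 1 these differences were 0.30 ± 0.71, -0.11 ± 0.34 and 0.50 ± 0.48, and did not pass. With errors of this size, equal effects are not shown.

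Some genes called under saracatinib had small changes under vehicle with all libraries. Adamts9 was at -0.74 under saracatinib and 0.21 under vehicle (difference -0.96 ± 0.25, adjusted p = 0.481), Spon2 at -0.92 and 0.13 (-1.05 ± 0.30), Ccnjl at -0.97 and 0.02 (-0.99 ± 0.31) and Psrc1, a mitotic spindle gene regulated by p53, at 0.84 and 0.14 (0.70 ± 0.19). None of these differences passed with all libraries. All 4 passed without empty vector vehicle library 1, at adjusted p of 0.0125, 0.0341, 0.0358 and 0.0340. In that fit their changes under vehicle were 0.40 in Adamts9, 0.23 in Spon2, 0.17 in Ccnjl and 0.088 in Psrc1. Spon2 averaged 8.73 ± 1.75 CPM in Ad-TGFβ1 saracatinib lungs and 16.4 ± 5.67 CPM in empty vector saracatinib lungs, and 22.8 ± 5.02 CPM in Ad-TGFβ1 vehicle lungs and 20.8 ± 4.14 CPM in empty vector vehicle lungs (SD, n = 5). The Ad-TGFβ1 saracatinib lungs were thus the lowest of the 4 groups in this gene, as they were in Adamts9, which averaged 83.7 ± 7.57 CPM in Ad-TGFβ1 saracatinib lungs and 140 ± 16.1 CPM in empty vector saracatinib lungs, and 176 ± 35.7 CPM in Ad-TGFβ1 vehicle lungs and 152 ± 50.5 CPM in empty vector vehicle lungs (SD, n = 5).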

How the data were processed

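The authors deposited a table of raw read counts per gene (55536 genes) for 20 left lungs. Per the submitters' processing notes, STAR 2.6.1d, Picard, featureCounts of Subread 1.6.3 and edgeR were named, with the builds mm9 and GRCm38. All gene IDs were found in GENCODE M21, whose GRCm38 coordinates are printed. No source used here gives the strand setting of the counting, so overlapping and antisense genes are uncertain, as are near-identical paralogs.

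Genes were kept with filterByExpr by group (18834 genes), scaled by TMM and tested with edgeR 4.0.16 (quasi-likelihood, R 4.3.3) in 1 fit of the 4 groups. P-values were adjusted by Benjamini-Hochberg over all 18834 genes, with a threshold of 0.05. Fold changes are log2, given ± SE. Nothing in the labels pairs libraries. P-values measure the spread between these samples, and counting error is largest in low-count genes. Total counts were 9.29 to 17.3 M over the 20 libraries.

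Members and lists were chosen with earlier results of these data known. Of 49 lists, 5 were added after values were seen, as was the setting that leaves out the farthest library of each saracatinib group. Named genes were a panel of 21 genes and, on each side, the 12 called genes with the largest change. The latter had a mean of at least 1 CPM over the 10 libraries and no clone names or antigen receptor segments. They also had no overlap between groups where enough such genes existed, so lack of overlap in them was a condition of naming. Further named genes were up to 4 called members of each list with the largest change (up to 2 with the lowest p where none was called). The 3 genes with the lowest p for the difference of effects, in either direction, were added. Other members named to describe a list, and genes marked so in the text, were chosen after values were seen. Alternatives were DESeq2 size factors, no filter, DESeq2 1.42.0, limma 3.58.1 voom with quality weights, the compared groups alone, robust dispersions and each library left out. The procedure was tested on simulated data. The series' other count tables were not used here. Some genes that the rule names are not reported here.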

Additional observations from a re-analysis of the deposited data

Results flagged for a closer look

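Of 92 groups of 5 libraries examined, 5 held a library whose gap to its nearest neighbour exceeded 0.71 of the range of the group, and chance flags about 1 group in 20. Ltbp2 reached 437 CPM in Ad-TGFβ1 saracatinib library 3, while the other 4 libraries of that group lay between 327 and 351 CPM. Smad7 was at 123 CPM in Ad-TGFβ1 saracatinib library 5, below the 144 to 153 CPM of the others. Sftpc was at 2350 CPM in Ad-TGFβ1 saracatinib library 2, below the 2907 to 3112 CPM of the others. Fn1 reached 818 CPM in empty vector saracatinib library 2, above the 526 to 595 CPM of the others. The total count was 16.0 M in empty vector saracatinib library 1 and 9.86 to 11.3 M in the others. Library 2 of each saracatinib group, which holds 2 of these values, also lay apart on the first principal component. The cause was not tested.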

How the results depend on the processing

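The count of 485 genes called under saracatinib was 793 with DESeq2, 959 with limma voom with quality weights and 796 without the farthest library of each saracatinib group, a setting chosen after seeing the data, and 397 to 478 with DESeq2 size factors, no filter, the compared groups alone or robust dispersions. Of the 485, 482 were shared with DESeq2, 482 with voom, 434 with the setting that leaves out both libraries, 385 with no filter, 332 with the compared groups alone and 179 to 485 when 1 library was left out. Leaving out 1 library at a time gave 181 to 807. The 4865 genes called under vehicle ranged from 3314 to 7127 when 1 library was left out. The difference of effects, with 0 genes called, gave 1 with DESeq2, 413 with voom and 0 to 1190 without 1 library. The cause was not tested. Of 177 named genes, 120 were called with all libraries, and 57 of these lost the call in at least 1 alternative while 63 kept it in all. Of the 57 not called, 16 were called in at least 1 alternative. Signs turned only in genes that were not called. With 1 library left out, Smad7 ran from -0.00311 to 0.12, Dnmbp from -0.0482 to 0.00891, Cthrc1 from -0.0889 to 0.13 and Acta1, of striated muscle, from -4.98 to 1.69, the last without empty vector saracatinib library 2. Cthrc1 was at -0.00628 with DESeq2 and -0.00225 in the compared groups alone, and Acta1 at 0.14 with voom and 1.71 without the farthest libraries. No paired analysis was possible because replicate numbers follow accession order and the labels tie no library to another. Depth limits genes of few counts, such as Ifng, Btnl6 and Cxcl11.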

Other observations

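Genes of the insulin-like growth factor axis were called in both directions, 2 higher and 2 lower of 14 tested, and 1 each way without Ad-TGFβ1 saracatinib library 3 or empty vector saracatinib library 4. Besides Igf1 and Igfbp3 these were Igfbp7, a secreted binding protein (0.47 ± 0.08, adjusted p = 0.00445), and the receptor Igf1r, which fell by 0.35 (adjusted p = 0.0290) and was lost without Ad-TGFβ1 saracatinib library 1, 3 or 5 or empty vector saracatinib library 1, 3 or 4 (adjusted p of up to 0.0855). In the Wnt pathway, Ccn4, a secreted matricellular target, rose while Wnt2 fell, the 2 called of 22 tested. That count was 1 without Ad-TGFβ1 saracatinib library 1 or 3 and 4 without empty vector saracatinib library 5. Ccn4 was at 12.2, 18.7, 21.9, 22.5 and 14.5 CPM in Ad-TGFβ1 saracatinib lungs and 7.00, 8.88, 4.21, 6.18 and 9.13 CPM in empty vector saracatinib lungs, without overlap (1.34 ± 0.21, adjusted p = 0.00215). In the bone morphogenetic protein and activin axis 3 of 19 rose, namely the transcriptional regulator Id2 (0.68 ± 0.12, adjusted p = 0.00445), the follistatin-like Fstl1 (0.44 ± 0.08, adjusted p = 0.00451) and the ligand Bmp4 (0.45 ± 0.10, adjusted p = 0.0203), the last lost without Ad-TGFβ1 saracatinib library 3, 4 or 5 or empty vector saracatinib library 3 or 5 (adjusted p of up to 0.0784).

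Among 20 p53 targets and senescence genes, Psrc1 and Cdkn2a rose and Igfbp3 fell. Cdkn2a, which encodes the cell cycle inhibitors p16 and p19, had 43, 24, 57, 24 and 41 counts in Ad-TGFβ1 saracatinib lungs and 20, 15, 5, 9 and 13 counts in empty vector saracatinib lungs (1.62 ± 0.33, adjusted p = 0.0109). All 32 cell cycle genes had a positive change (median 0.53) and 0 were called, with 0 to 2 called when 1 library was left out. Of 11 neutrophil genes 10 had a negative change under saracatinib (median -0.57, 0 called), against a median of 1.02 with 4 called higher under vehicle, and 6 had an unadjusted p of the difference under 0.05, beside 1933 of all 18834 genes. Without empty vector vehicle library 1 the difference passed in 2 of the 11, beside 1190 of all genes in that fit. Trem1 was 1 of the 2 (-1.90 ± 0.47, adjusted p = 0.0306). Without empty vector saracatinib library 4, 1 neutrophil gene was called lower under saracatinib. All 10 mitochondrially encoded genes had a negative change (median -0.30, 0 called), against a median of -0.75 with 8 called lower under vehicle. Without empty vector vehicle library 1, 2 of the 10 were called lower under saracatinib and the difference of effects passed in 7. Over all genes in that fit, 220 were called lower under saracatinib and the difference passed in 1190. With all libraries, 6 of the 10 mitochondrially encoded genes had an unadjusted p of the difference under 0.05, beside 1933 of all 18834 genes. All 16 striated muscle genes had a negative change (median -0.70, 0 called), with a summed level of 430 to 1550 CPM in Ad-TGFβ1 saracatinib lungs and 641 to 3380 CPM in empty vector saracatinib lungs.

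Some of the largest rises belong to genes outside the lists. Kcng1, a potassium channel subunit, was at 3.14 to 5.11 CPM in Ad-TGFβ1 saracatinib lungs and 0.486 to 1.56 CPM in empty vector saracatinib lungs (2.26 ± 0.27, adjusted p = 0.000468). Nrk, a protein kinase of the germinal centre kinase family, was at 2.75 to 5.29 CPM in Ad-TGFβ1 saracatinib lungs and 0.0972 to 1.05 CPM in empty vector saracatinib lungs (2.53 ± 0.40, adjusted p = 0.00230). Neither overlapped between groups, which was a condition of the rule that named them.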
